A study of Mus musculus with 8 samples.

Results

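Pparg, Cebpd and Klf15 are the 3 genes described here, chosen by name from the deposited gene table, where each name stands on exactly 1 of 49868 named loci (76557 loci in all). RNA was sequenced from mesenchymal stem cells (MSc) of mouse hind leg bones on day 7 of osteogenic culture, in 4 Has-tKO and 4 wildtype mice, each library from a separate mouse. Has-tKO cells lack Has1 and Has3 constitutively and lost Has2, the remaining hyaluronan synthase, by a Cre that 4-hydroxytamoxifen switches on in culture. Wildtype cells came from C57Bl6/J mice and received the same 48 h exposures to 4-hydroxytamoxifen and the same osteogenic medium. The labels name neither the Cre driver nor the strain background of the Has-tKO mice, nor their age. The MSc are primary cultures after 4 passages, not a sorted population. Levels are FPKM (fragments normalised to transcript length and to the mapped fragments of the library) as deposited, and the sequencing depth behind them is unknown. Hyaluronan is a matrix polysaccharide, and the question of the study was what its complete loss does to osteogenic differentiation.

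Marrow stromal progenitors can become osteoblasts or fat cells, and the branch towards fat is run by a cascade of transcription factors. Cebpb and Cebpd, basic leucine zipper proteins of the C/EBP family, come early, are induced by hormonal and inflammatory stimuli, and switch on Pparg. Pparg is the nuclear receptor that pairs with Rxra and turns on the lipid genes of mature fat cells. Klf15, a zinc finger protein of the Kruppel-like family, is induced by glucocorticoids, acts together with Pparg in adipogenesis, and controls the breakdown of branched-chain amino acids in muscle and liver. Cebpd and Pparg are also made by macrophages.

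RefSeq promoter windows (GRCm38.p6, 250 bases before to 50 after a transcription start) were found for 2 of the 3 genes, 1 window for Klf15 and 3 for Pparg. Of these, 2 are shown as background, and their motif matches do not place the genes in this cascade. The Klf15 window lies at chr6:90462326-90462625 on the plus strand, and the capitals mark its 3 E-boxes (CACGTG, which reads the same on both strands). An E-box occurred in 7.15% of the 32851 windows in the RefSeq table.

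Klf15: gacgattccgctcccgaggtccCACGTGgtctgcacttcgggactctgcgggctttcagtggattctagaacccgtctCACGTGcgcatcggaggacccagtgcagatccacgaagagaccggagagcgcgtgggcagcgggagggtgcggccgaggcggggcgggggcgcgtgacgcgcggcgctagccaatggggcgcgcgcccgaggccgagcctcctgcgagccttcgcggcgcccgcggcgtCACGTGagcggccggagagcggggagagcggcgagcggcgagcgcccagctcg

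The most downstream Pparg start, that of the Pparg2 isoform of fat cells, has its window at chr6:115421816-115422115 on the plus strand. Its capitals mark 2 matches to a C/EBP motif (TTGCNNAA, both strands), which occurred in 10.8% of all windows. The other Pparg windows held no match to this motif.

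Pparg: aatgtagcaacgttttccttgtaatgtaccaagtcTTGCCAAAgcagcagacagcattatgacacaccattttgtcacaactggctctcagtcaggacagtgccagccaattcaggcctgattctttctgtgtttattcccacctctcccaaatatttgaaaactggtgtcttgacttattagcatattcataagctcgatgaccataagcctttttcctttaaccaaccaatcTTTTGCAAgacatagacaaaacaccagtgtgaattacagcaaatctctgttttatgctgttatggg

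AGAACA, a motif of the glucocorticoid receptor found in 19.0% of all windows, matched in none of the 4 windows on either strand. No window held both the E-box and the C/EBP motif. The deposited table gives 1 value for Pparg, so its isoforms are not told apart.

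Of the targeted genes, Has3 had 0.663, 0.576, 0.621 and 0.1501 FPKM in Has-tKO libraries 1 to 4, against 0.236, 0.415, 0.466 and 0.394 FPKM in wildtype libraries 1 to 4 (0.503 ± 0.238 FPKM in Has-tKO and 0.378 ± 0.0995 FPKM in wildtype, exact two-sided permutation p = 0.371). The groups overlapped, and Has3 reads were thus not lower in the libraries labelled Has-tKO. The labels do not say which part of Has3 is deleted, so this level does not check the genotype, and every direction given here rests on the labels. Has1 and Has2 were not analysed here; per the labels, the submitters verified the loss of Has2.

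In FPKM as deposited, Cebpd was higher and Klf15 lower in Has-tKO without overlap, while Pparg showed no difference beyond the spread of the mice. The limma test across genes called Cebpd before but not after median-ratio scaling, and Klf15 after but not before. Neither call held with each library left out in turn. Cebpd had 14.0, 12.2, 14.1 and 13.2 FPKM in Has-tKO libraries 1 to 4, against 7.99, 7.96, 8.87 and 7.93 FPKM in wildtype libraries 1 to 4. Every Has-tKO library lay above every wildtype library, and the spread within each genotype was small, with means of 13.4 ± 0.879 FPKM in Has-tKO and 8.19 ± 0.458 FPKM in wildtype (SD, n = 4 each), a ratio of 1.63. The log2 fold change of Cebpd on the log2(FPKM + 1) scale was 0.65 (SE 0.14, 95% interval 0.34 to 0.95, limma adjusted p = 0.0442). This scale understates the change of genes near 1 FPKM. Of all 9916 tested genes, 1.58% rose and 0.192% fell by that test (adjusted p below 0.05), and 12.0% had every Has-tKO library above every wildtype library.

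Klf15 had 0.599, 1.43, 0.793 and 1.12 FPKM in Has-tKO libraries 1 to 4, against 1.71, 2.71, 1.95 and 2.21 FPKM in wildtype libraries 1 to 4. The groups did not overlap, with every Has-tKO library low; 1.53% of tested genes separated in this direction. Klf15 averaged 0.985 ± 0.365 FPKM in Has-tKO and 2.15 ± 0.428 FPKM in wildtype (SD, n = 4 each), a ratio of 0.459. Its log2 fold change was -0.67 (SE 0.18, 95% interval -1.06 to -0.28) and missed the threshold at a limma adjusted p of 0.0767. With a pseudocount of 0.1 the log2 fold change was -1.09 (adjusted p = 0.105). Klf15 entered the test through the wildtype group, where all 4 libraries reached 1 FPKM, and all 3 genes passed this filter on low values.

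Pparg had 2.12, 3.00, 2.77 and 3.03 FPKM in Has-tKO libraries 1 to 4, against 1.43, 2.95, 2.58 and 1.71 FPKM in wildtype libraries 1 to 4. The groups overlapped, wildtype 2 and wildtype 3 lying among the Has-tKO values and wildtype 1 and wildtype 4 below them. The means were 2.73 ± 0.424 FPKM in Has-tKO and 2.17 ± 0.717 FPKM in wildtype (SD, n = 4 each). Its log2 fold change was 0.26 with a 95% interval of -0.15 to 0.67 (limma adjusted p = 0.510), so a rise of that upper size or a small fall is within the error. The exact two-sided permutation p of the difference in mean FPKM was 0.0286 for Cebpd, 0.0286 for Klf15 and 0.200 for Pparg, unadjusted over these 3 tests. With 4 against 4 libraries 0.0286 is the smallest p this test can give.

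The libraries differed in overall level, and this bears on Cebpd and Klf15 in opposite ways. Between 8327 and 10357 named loci reached 1 FPKM in a library, the lowest number being that of wildtype 1. Median-ratio size factors were 0.660 for wildtype 1 and 0.984 to 1.14 for the other 7 libraries, and the median log2 fold change of all tested genes was 0.16 unscaled and -0.03 after scaling. After scaling 2.65% of tested genes passed, 1.36% upwards and 1.29% downwards. Klf15 then fell (log2 fold change -0.82, SE 0.15, 95% interval -1.15 to -0.49, limma adjusted p = 0.0277), with scaled values of 0.537 to 1.25 FPKM in Has-tKO and 1.85 to 2.595 FPKM in wildtype. The scaled groups of Klf15 did not overlap, as for 7.60% of tested genes in this direction. Cebpd did not pass after scaling (0.40, SE 0.15, 95% interval 0.07 to 0.73, adjusted p = 0.181). Its scaled values were 12.5, 10.7, 12.8 and 12.2 FPKM in Has-tKO and 12.1, 7.38, 8.44 and 8.06 FPKM in wildtype, so that wildtype 1 alone reached the Has-tKO range; 5.64% of tested genes separated upwards after scaling. Without wildtype 1 Cebpd passed both unscaled (0.64, adjusted p = 0.0173) and scaled (0.54, adjusted p = 0.0281). Klf15 without wildtype 1 passed in both as well (-0.74, adjusted p = 0.04997 unscaled, and -0.78, adjusted p = 0.0393 scaled). Pparg had a scaled log2 fold change of 0.08 (95% interval -0.23 to 0.39, adjusted p = 0.799).

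**Figure D1:**
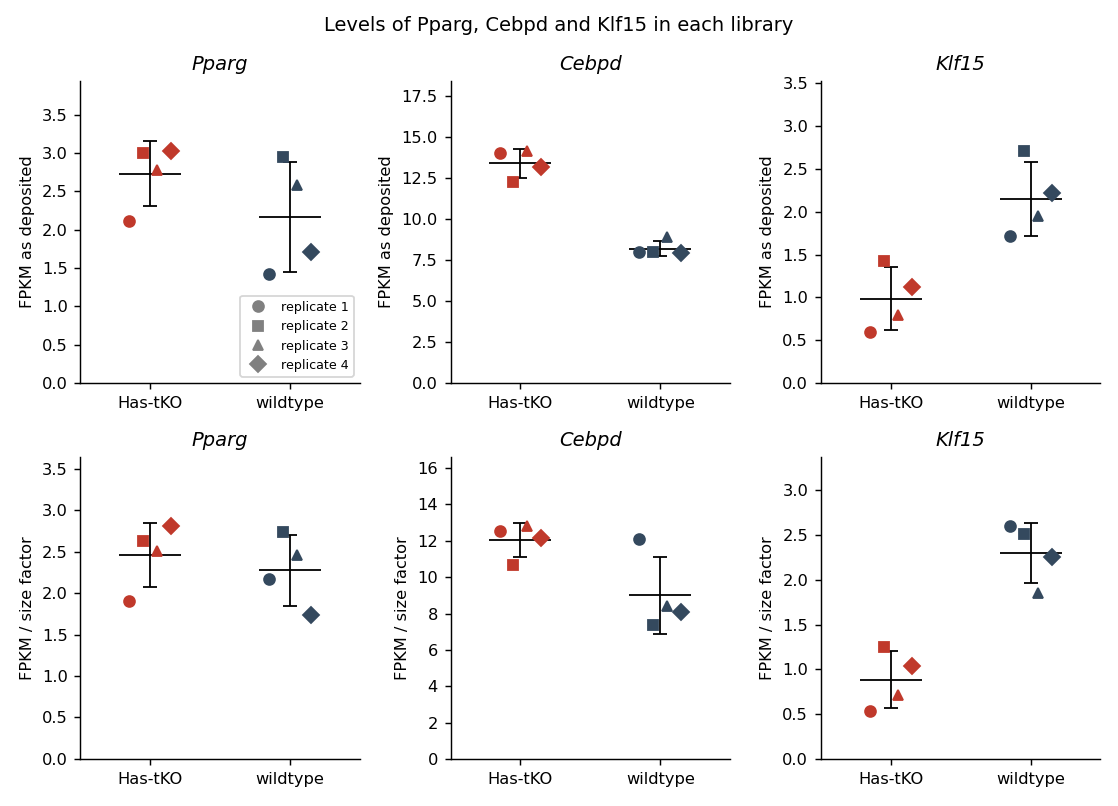
Levels of Pparg, Cebpd and Klf15 in each library (points), with the mean and SD of the 4 Has-tKO and 4 wildtype libraries; top, FPKM as deposited, bottom, FPKM divided by the library's median-ratio size factor, axes from 0. Klf15 separates the groups in both rows, Cebpd does so in the upper row alone, where wildtype 1 has 7.99 FPKM against 12.1 after scaling, and Pparg overlaps in both.

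Ratios between the genes within a library do not move with the scaling of that library. Cebpd over Klf15 was 23.4, 8.57, 17.8 and 11.7 in Has-tKO libraries 1 to 4, against 4.67, 2.94, 4.55 and 3.58 in wildtype libraries 1 to 4. The groups did not overlap, the lowest Has-tKO ratio being that of library 2. Every Has-tKO library was above every wildtype library in Cebpd and below it in Klf15. The separation of this ratio and its permutation p were thus fixed beforehand and add no evidence to the single genes. On the log2(FPKM + 1) scale the ratio was 2.87 ± 0.35 in Has-tKO and 1.55 ± 0.23 in wildtype (SD, n = 4 each; difference 1.32, exact two-sided permutation p = 0.0286, 0.0429 adjusted over 3 ratios). With no pseudocount, where scaling cancels in full, the difference was 1.89 on the log2 scale, with the same p.

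Pparg over Klf15 was 3.54, 2.10, 3.50 and 2.70 in Has-tKO libraries 1 to 4, against 0.835, 1.09, 1.33 and 0.771 in wildtype libraries 1 to 4. These groups did not overlap either (difference 0.93 in log2(FPKM + 1), exact two-sided permutation p = 0.0286, 0.0429 adjusted over 3 ratios). With no pseudocount the difference was 1.56, with the same unadjusted p. The adjusted value leans on the equal p of Cebpd over Klf15, which was fixed beforehand, and is not read as a call. Pparg and Klf15 were at like levels per length in wildtype, 2.17 ± 0.717 and 2.15 ± 0.428 FPKM, and in Has-tKO every Pparg value lay above every Klf15 value. Cebpd over Pparg was 4.08 to 6.60 in Has-tKO and 2.70 to 5.59 in wildtype, groups that overlapped (difference 0.39 in log2(FPKM + 1), exact two-sided permutation p = 0.114, also after adjustment). Cebpd was the highest of the 3 genes per length in all 8 libraries. A ratio shows that 2 genes changed unequally, not which of them changed.

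**Figure D2:**
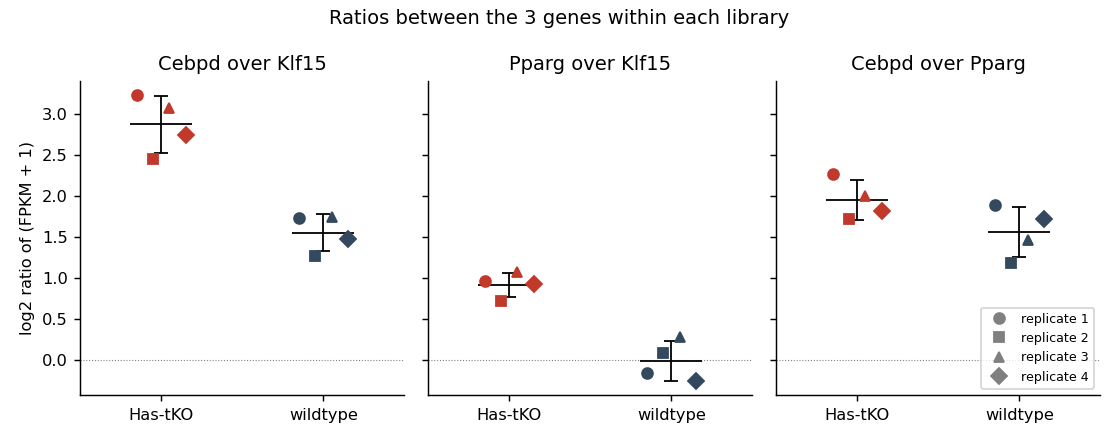
Log2 ratios of (FPKM + 1) between pairs of the 3 genes within each library (points), with mean and SD per genotype (n = 4 each). The ratios over Klf15 are higher in all 4 Has-tKO than in all 4 wildtype libraries (2.87 against 1.55 on average for Cebpd over Klf15), and Cebpd over Pparg overlaps.

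Among the relatives of Cebpd, the early adipogenic factor Cebpb had 60.6, 43.8, 58.9 and 66.5 FPKM in Has-tKO libraries 1 to 4, against 40.4, 26.9, 40.7 and 29.1 FPKM in wildtype libraries 1 to 4. The unscaled groups did not overlap, as for 12.0% of tested genes in this direction. Cebpb averaged 57.4 ± 9.63 FPKM in Has-tKO and 34.3 ± 7.28 FPKM in wildtype (SD, n = 4 each). Its log2 fold change of 0.74 (SE 0.20) was of the size of that of Cebpd and did not pass (limma adjusted p = 0.0767, and 0.357 after scaling). Cebpg, which lacks an activation domain, and Cebpz, listed here by its name alone, had log2 fold changes of 0.16 each (limma adjusted p = 0.754 and 0.670). These became -0.03 and -0.02 after scaling. Cebpe, a granulocyte factor, was listed at 0 in all 8 libraries. Of the 4 tested genes with a C/EBP name Cebpd alone passed unscaled and none after scaling. Across all tested genes 1.58% rose unscaled and 1.36% after scaling. The median log2 fold change of the 4 was 0.40 unscaled and 0.19 scaled, against 0.16 and -0.03 over all tested genes. Cebpa, the factor of the later adipogenic phase, was not analysed here because no locus carries its name.

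No PPAR or RXR gene passed, of 4 tested, where 1.77% of all tested genes passed unscaled and 2.65% after scaling. Ppard, the widely expressed PPAR, had 2.52 ± 0.351 FPKM in Has-tKO and 1.76 ± 0.563 FPKM in wildtype (SD, n = 4 each; log2 fold change 0.37, limma adjusted p = 0.335). Rxra, the partner of Pparg, had 18.7 ± 2.90 FPKM in Has-tKO and 20.1 ± 6.59 FPKM in wildtype (-0.04, adjusted p = 0.952). Ppara, the fatty acid oxidation PPAR of liver, reached at most 0.435 FPKM in Has-tKO and 0.518 FPKM in wildtype and was too low for the test.

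Klf15 stood at the low end of its family. Of 13 tested KLF genes none passed unscaled, and Klf15 alone passed after scaling. The shares over all tested genes were 1.77% unscaled and 2.65% after scaling, so counts this small say little about the family. The median log2 fold change of the family was 0.29 unscaled and 0.17 scaled. Klf9, another glucocorticoid-induced member, had 4.85 ± 0.952 FPKM in Has-tKO and 5.70 ± 1.27 FPKM in wildtype (-0.19, limma adjusted p = 0.649, and -0.40, adjusted p = 0.128 after scaling). The Klf15 and Klf9 estimates were both negative with and without scaling. This sign was not particular to them, since 4 of the 13 tested KLF genes were negative unscaled and 6 after scaling. Klf6, Klf10, Klf4, Klf13 and Klf16 had log2 fold changes of 0.42 to 0.63 unscaled and 0.18 to 0.41 scaled, none past the threshold. Klf4 and Klf6, which act early in adipogenesis, had 11.1 ± 1.35 and 26.3 ± 1.02 FPKM in Has-tKO and 7.51 ± 2.64 and 18.1 ± 2.06 FPKM in wildtype (SD, n = 4 each).

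**Figure D3:**
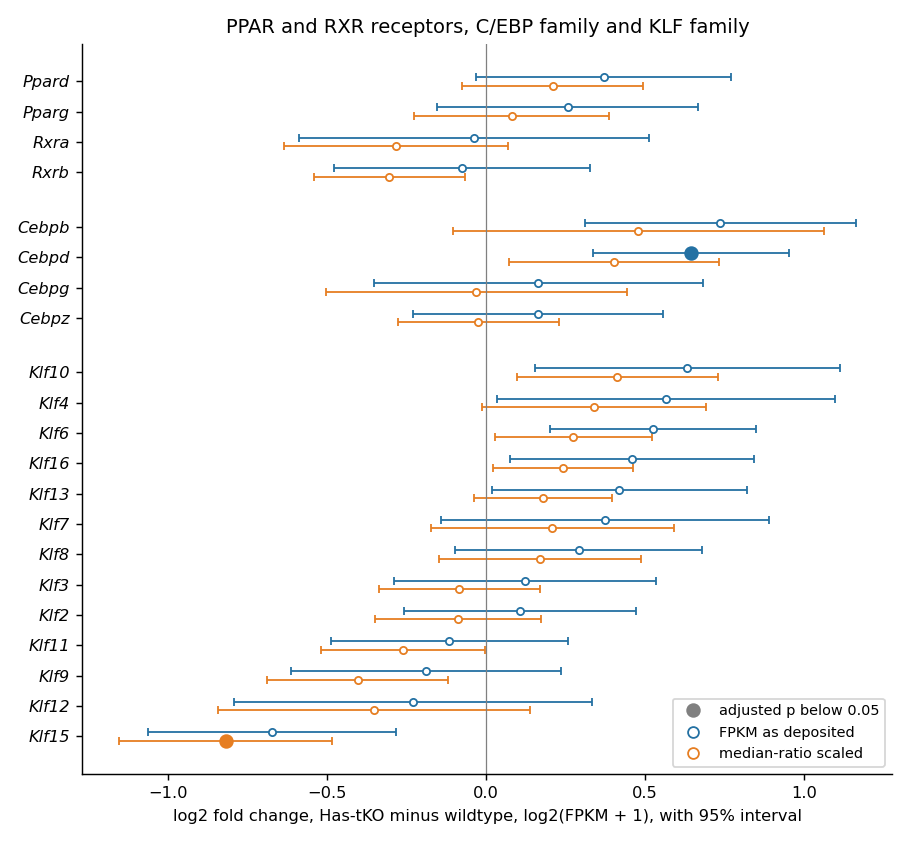
Differences in mean log2(FPKM + 1), Has-tKO minus wildtype, with 95% intervals, for the tested PPAR and RXR receptors, C/EBP genes and KLF genes; blue, FPKM as deposited, orange, after median-ratio scaling, large filled points where the limma adjusted p is below 0.05. Cebpd (0.65 unscaled) and Klf15 (-0.82 scaled) are the filled points.

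The genes downstream of Pparg did not pass as single genes. Of 13 tested Pparg target and mature adipocyte genes none rose or fell, with or without scaling. Across all tested genes 1.77% passed unscaled and 2.65% after scaling. The list's median log2 fold change of 0.22 unscaled and -0.02 scaled lay near that of all tested genes. The fatty acid uptake receptor Cd36, which macrophages also express, had 53.1 ± 9.73 FPKM in Has-tKO and 25.2 ± 10.5 FPKM in wildtype (log2 fold change 1.15, limma adjusted p = 0.0784, and 0.90, adjusted p = 0.0645 after scaling). The triglyceride lipase Pnpla2 had 5.10 ± 1.17 FPKM in Has-tKO and 2.76 ± 0.523 FPKM in wildtype (0.69, adjusted p = 0.0716). The lipase inhibitor Angptl4 had 0.67 (adjusted p = 0.0841), and the triglyceride synthase Dgat2 had -0.39 (adjusted p = 0.329). Lpl, the lipoprotein lipase, had 12.9 ± 2.50 FPKM in Has-tKO and 10.9 ± 3.11 FPKM in wildtype (0.24, adjusted p = 0.592).

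Most defining markers of mature fat cells were at or near 0. The hormone Lep and the enzyme Pck1 were listed at 0 in all 8 libraries, Adipoq stayed at or below 1.28 FPKM, Fabp4 at or below 0.422 FPKM and Plin1 at or below 0.549 FPKM. The secreted protease Cfd (adipsin) had 0.281, 1.19, 0.655 and 1.32 FPKM in Has-tKO libraries 1 to 4, against 0.235, 0, 0 and 0.0904 FPKM in wildtype libraries 1 to 4. Its groups did not overlap, and it was too low for the test across genes. Of tested genes 12.0% separated in this direction, a share that does not cover genes as low as Cfd. The 10 adipocyte markers summed to 2.60 to 4.19 FPKM in Has-tKO and 1.72 to 2.72 FPKM in wildtype, and 1 of them, the lipase Lipe, was high enough for the test (0.03, limma adjusted p = 0.938, and -0.11 after scaling). Marrow stromal genes did not pass either, 0 of 4 tested, where 1.77% of all tested genes passed unscaled and 2.65% after scaling. Cxcl12 was at 223 ± 46.6 FPKM in Has-tKO and 223 ± 80.2 FPKM in wildtype (SD, n = 4 each, log2 fold change 0.05, and -0.21 after scaling). In such bulk libraries fewer cells of a type and less RNA per cell cannot be told apart.

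Coregulators of Pparg did not pass, 0 of 10 tested in each direction, where 1.77% of all tested genes passed unscaled. The smallest p was that of the coactivator Ncoa3 (log2 fold change 0.56, limma adjusted p = 0.297), followed by the corepressor Tle3 (0.38, adjusted p = 0.371), the acetyltransferase Ep300 (0.33) and the deacetylase Sirt1 (0.24). Of 12 tested pro-adipogenic regulators outside these families, Egr2 (Krox20), an early zinc finger factor of adipogenesis and of the macrophage and nerve lineages, rose to 6.18 ± 2.11 FPKM in Has-tKO, against 0.822 ± 0.128 FPKM in wildtype (1.93, adjusted p = 0.00226). It rose after scaling too (1.74, adjusted p = 0.00998), and none of the 12 fell. In comparison, 1.58% of all tested genes rose unscaled and 1.36% after scaling. Egr2 entered the test through the Has-tKO libraries, since no wildtype library reached 1 FPKM. Zfp423, a factor of fat cell commitment, had 2.51 ± 0.453 FPKM in Has-tKO and 4.33 ± 1.85 FPKM in wildtype (-0.53, adjusted p = 0.340). The insulin receptor substrate Irs1 had a log2 fold change of -0.34 and Zfp467, a cofactor of adipogenesis, 0.19.

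Of 9 tested genes that oppose adipogenesis 1 rose and none fell unscaled, and 1 rose and 1 fell after scaling. The shares over all tested genes were 1.58% up and 0.192% down unscaled, and 1.36% up and 1.29% down after scaling. Hes1, a Notch target that reached 1 FPKM in the Has-tKO libraries alone and entered the test through them, rose to 1.40 ± 0.335 FPKM in Has-tKO, against 0.310 ± 0.215 FPKM in wildtype (log2 fold change 0.88, limma adjusted p = 0.0344, and 0.80, adjusted p = 0.0379 after scaling). Sox9, the cartilage factor, had 7.11 ± 1.04 FPKM in Has-tKO and 13.3 ± 3.98 FPKM in wildtype, and fell after scaling alone (-0.78, adjusted p = 0.0966 unscaled, and -1.01, adjusted p = 0.00998 scaled). The growth factor Tgfb1 (0.51) and the deacetylase Sirt2 (0.30) did not pass.

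The genes that Klf15 controls in amino acid breakdown did not pass, 0 of 13 tested in each direction with or without scaling. Across all tested genes 1.77% passed unscaled and 2.65% after scaling. Bckdha, a subunit of the branched-chain keto acid dehydrogenase, had 8.59 ± 1.25 FPKM in Has-tKO and 11.7 ± 1.17 FPKM in wildtype (log2 fold change -0.41, limma adjusted p = 0.212, and -0.65, adjusted p = 0.0711 after scaling). Its unscaled groups did not overlap, as for 1.53% of tested genes in this direction. The alanine transaminase Gpt2 had 1.81 ± 0.426 FPKM in Has-tKO and 2.66 ± 0.541 FPKM in wildtype (-0.38, adjusted p = 0.299, and -0.55, adjusted p = 0.0600 after scaling). The amino acid carrier Slc7a8 (0.81) and the aspartate transaminase Got1 (0.41) were positive. The list's median was 0.08 unscaled and -0.09 scaled.

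Cebpd and Klf15 are both known as glucocorticoid-induced genes, a list of which 17 were tested. Unscaled, 4 rose and none fell, and after scaling 1 rose and 1 fell, counts that include Cebpd and Klf15 themselves. Over all tested genes 1.58% rose and 0.192% fell unscaled, and 1.36% rose and 1.29% fell after scaling. The 4 were the phosphatase Dusp1 (log2 fold change 0.87, limma adjusted p = 0.0203), the growth factor receptor inhibitor Errfi1 (1.57, adjusted p = 0.0219), Cebpd itself and the metallothionein Mt2 (1.40, adjusted p = 0.0472). After scaling Errfi1 rose (1.33, adjusted p = 0.0139) and Klf15 fell. Dusp1, Errfi1 and Mt2 also respond to growth factor, stress or metal signals. Other widely used glucocorticoid response genes did not pass, with Tsc22d3 at -0.01 (adjusted p = 0.987), Fkbp5 at 0.19 (adjusted p = 0.573), Per1 at 0.35 (adjusted p = 0.289) and Klf9 at -0.19. The labels do not state whether the osteogenic supplement holds a glucocorticoid.

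Of 8 tested acute phase and inflammatory genes that C/EBP factors switch on, 2 rose and none fell, with and without scaling. The share of all tested genes that rose was 1.58% unscaled and 1.36% after scaling. The chemokine Ccl2 rose to 42.5 ± 12.1 FPKM in Has-tKO, against 7.32 ± 2.53 FPKM in wildtype (log2 fold change 2.40, limma adjusted p = 0.00226). The mitochondrial superoxide dismutase Sod2 rose to 6.88 ± 0.566 FPKM in Has-tKO, against 3.09 ± 1.19 FPKM in wildtype (0.99, adjusted p = 0.0404). The acute phase protein Saa3 had 10.0 ± 2.67 FPKM in Has-tKO and 4.96 ± 0.954 FPKM in wildtype (0.87, adjusted p = 0.0501), and complement C3 a log2 fold change of 0.59. Haptoglobin (Hp, -0.47 and -0.73 after scaling), ceruloplasmin (Cp, -0.13 and -0.34) and the pentraxin Ptx3 (-0.08 and -0.34) were negative without passing, and Lcn2 was 0.13 and -0.09. The list's median was 0.36 unscaled and 0.12 scaled.

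Macrophages make Cebpd, Cebpb and Pparg, and the levels of myeloid markers therefore stand beside these results. Of 15 tested macrophage and myeloid markers 3 rose unscaled (Cx3cr1, Cd52 and Spi1) and 1 after scaling, and all 15 had positive log2 fold changes (median 0.99, and 0.73 after scaling). Among all tested genes 1.58% rose and 0.192% fell unscaled, and 1.36% rose and 1.29% fell after scaling. The 16 named markers summed to 616 to 1009 FPKM in Has-tKO and 376 to 640 FPKM in wildtype, the highest wildtype library being wildtype 3 and the lowest Has-tKO library Has-tKO 3, and none of them was at 0 in any library. By library the sum was 1009, 760, 616 and 989 FPKM in Has-tKO 1 to 4, and 390, 398, 640 and 376 FPKM in wildtype 1 to 4. Cebpd was 14.0, 12.2, 14.1 and 13.2 FPKM in Has-tKO 1 to 4, and 7.99, 7.96, 8.87 and 7.93 FPKM in wildtype 1 to 4. The part of these cells in the Cebpd result was not tested. Of 14 listed osteoblast markers 7 had a named locus. Alpl was at 67.4 ± 12.8 FPKM in Has-tKO and 121 ± 29.3 FPKM in wildtype. Dmp1 went the other way, at 9.20 ± 3.63 FPKM in Has-tKO and 5.47 ± 1.64 FPKM in wildtype (log2 fold change 0.62, and 0.39 after scaling). Cartilage genes were present too, such as Col2a1 at 159 ± 30.2 FPKM in Has-tKO and 185 ± 70.2 FPKM in wildtype. Osteoblast markers had 0 of 6 tested members past the threshold unscaled and 2 lower after scaling, and chondrocyte markers 2 of 7 lower unscaled (Col10a1 and Col9a1) and 3 after scaling. Endothelial markers summed to 1.66 to 2.39 FPKM in Has-tKO and 0.812 to 1.16 FPKM in wildtype, with Emcn near 0, and lymphoid and erythroid markers to 1.63 to 5.80 FPKM in Has-tKO and 0.957 to 2.57 FPKM in wildtype, with Cd3e and Ms4a1 at or near 0. Beside the myeloid sums, Klf15 was 0.599, 1.43, 0.793 and 1.12 FPKM in Has-tKO 1 to 4, and 1.71, 2.71, 1.95 and 2.21 FPKM in wildtype 1 to 4. Pparg was 2.12, 3.00, 2.77 and 3.03 FPKM in Has-tKO 1 to 4, and 1.43, 2.95, 2.58 and 1.71 FPKM in wildtype 1 to 4. The part of myeloid cells in the Klf15 and Pparg values was not tested.

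Of the housekeeping genes Hprt had 35.5 ± 2.22 FPKM in Has-tKO and 24.8 ± 5.83 FPKM in wildtype, and Ppia 10.2 ± 0.509 FPKM in Has-tKO and 10.6 ± 4.27 FPKM in wildtype (0.04, and -0.19 after scaling). In all, 0 of 8 tested housekeeping genes passed, where 1.77% of all tested genes passed unscaled and 2.65% after scaling. The annotated spans of Cebpd and Spidr overlap in RefSeq, and reads from the shared stretch are not separated by strand in these libraries. How much of Cebpd lies in the overlap was not measured. Spidr was at 3.04 FPKM in Has-tKO and 2.36 FPKM in wildtype.

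Genes with the most similar profile were ranked by Pearson r of log2(scaled FPKM + 1) over the 8 libraries, as a description. The libraries share the genotype contrast and the scaling. The r within genotype, given as well, removes the contrast but uses the same scaled values, so it does not remove the scaling. For Klf15 these were Dact1 (r = 0.990), Kcp (0.974), Matn2 (0.974), Mgll (0.974) and Fgfr3 (0.973), with r within genotype of 0.816 to 0.940. Dact1 had 1.77 FPKM in Has-tKO and 3.53 FPKM in wildtype (log2 fold change -0.72, limma adjusted p = 0.0882, and -0.89, adjusted p = 0.0266 after scaling). For Cebpd they were Klf6 (r = 0.978), Snrnp70 (0.975), Trim47 (0.966), Rgs2 (0.965) and Dok1 (0.964), with r within genotype of 0.940 to 0.988. None of these 5 passed, with log2 fold changes of 0.42 to 0.69. For Pparg they were Foxj2 (r = 0.909), Akr1e1 (0.857), Aurka (0.851), Cd74 (0.848) and Coq3 (0.834), with r within genotype of 0.823 to 0.919. Pparg and Cebpd themselves had an r of 0.02, and Pparg and Klf15 of -0.05. Within genotype Cebpd and Klf15 had an r of -0.08, against -0.70 over all 8 libraries.

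Leaving out each library in turn kept the direction of Cebpd and of Klf15 in all 16 fits of each gene. The unscaled log2 fold change ranged from 0.62 to 0.69 for Cebpd and from -0.78 to -0.58 for Klf15. After scaling it ranged from 0.33 to 0.54 for Cebpd and from -0.91 to -0.73 for Klf15. Cebpd passed in 2 of the 8 unscaled fits (without wildtype 1 or wildtype 3) and Klf15 in 3 of the 8 scaled fits (without Has-tKO 2, wildtype 1 or wildtype 3). The limma adjusted p rose to 0.184 for unscaled Cebpd without Has-tKO 1, and to 0.103 for scaled Klf15 without wildtype 4.

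**Figure D4:**
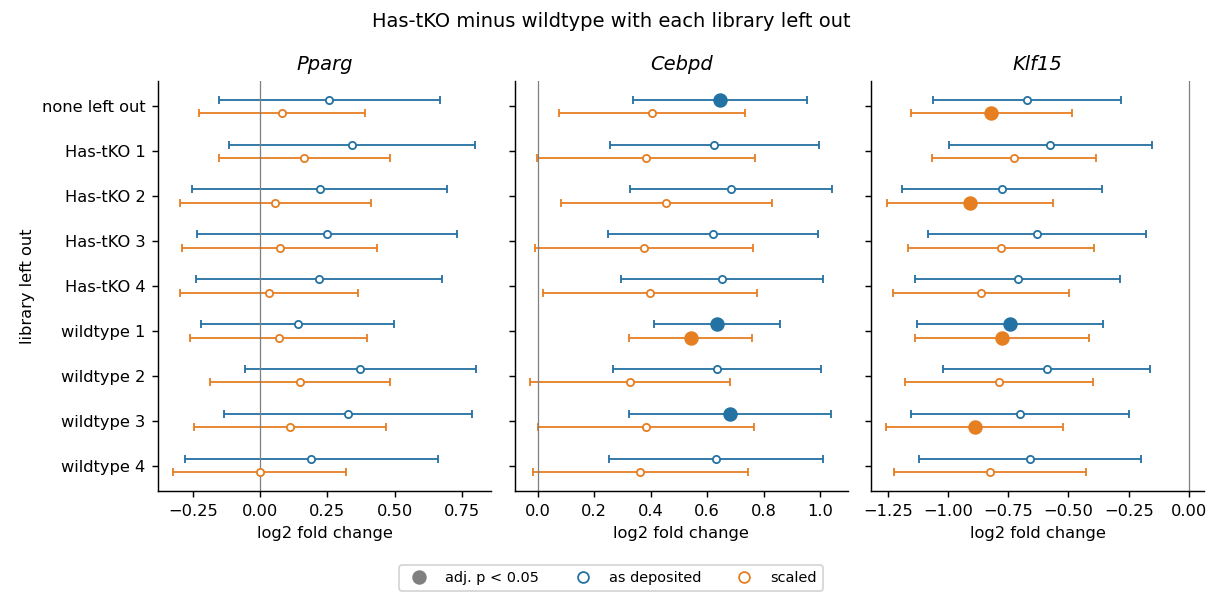
Differences in mean log2(FPKM + 1), Has-tKO minus wildtype, with 95% intervals and each library left out in turn; blue, FPKM as deposited, orange, median-ratio scaled, large filled points where the limma adjusted p is below 0.05. The Cebpd estimates stay above 0 (0.33 to 0.69) and the Klf15 estimates below 0 (-0.91 to -0.58), while Pparg reaches 0 without wildtype 4.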

How the data were processed

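Total RNA (100 ng) was depleted of ribosomal RNA and made into Nextera libraries, which do not record the strand, per the labels' protocols. The authors deposited FPKM values per locus. The submitters' processing notes name bcl2fastq, fastp, HISAT2, StringTie and DESeq2 and the builds GRCm39 and hg38; their versions and options are not stated there, nor is the way transcripts were combined into a locus. Columns were matched to mice by the names in the header. Low FPKM values were not whole multiples of a common step (11.0% to 12.6% within 0.05 of one, where chance gives 10%), so depth is unknown and no counting error is given.

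All tests across genes used log2(FPKM + 1). Every named locus that reached 1 FPKM in 4 or more libraries (9916 in all) was fitted with limma 3.58.1 in R 4.3.3 (genotype term, empirical Bayes with intensity trend, two-sided, Benjamini-Hochberg adjustment over all tested loci, threshold 0.05), and this code was tested on simulated data. Scaled values divide FPKM by median-ratio size factors from 19489 loci above 0 in every library. Single values and within-library ratios were tested by exact permutation (scipy 1.17.1). Alternatives were other scalings, pseudocounts of 0.1 and 0.5, other filters, inclusion of loci without a gene name, no trend, a replicate block, and left-out libraries. The 26689 loci without a name were otherwise left out. Where several loci share a name, gene lists used the one with the highest mean.

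The 3 genes and the gene lists were chosen with earlier results of these data known. Named genes are the 3 genes, the Has genes, passing and closest relatives, up to 4 genes per list with the smallest p, the 5 genes of most similar profile and housekeeping genes; Lpl, Adipoq, Fabp4, Plin1, Lep, Pck1, Cxcl12, Cfd, Hp, Cp, Ptx3, Lcn2, Tsc22d3, Fkbp5, Per1, Klf4, Klf6, Klf10, Klf13, Klf16, Cebpe, Cebpg, Cebpz, Alpl, Col2a1, Col9a1, Col10a1 and Spidr were added after their values were seen. RefSeq GRCm38.p6 tables gave promoter windows and neighbouring genes alone.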

Additional observations from a re-analysis of the deposited data

Results flagged for a closer look

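A library standing far from the other 3 of its genotype (Dixon's 95% critical value) was found in 8 of 188 groups of 4 examined, where chance gives about 1 in 20. Cebpd was 8.87 FPKM in wildtype 3, against 7.93 to 7.99 FPKM in the other wildtype libraries. The summed macrophage and myeloid markers were 640 FPKM in the same library, against 376 to 398 FPKM in the other wildtype libraries; the part of these cells in the Cebpd level was not tested. Klf9 (3.80 FPKM, others 6.28 to 6.44) and Tle3 (2.23 FPKM, others 4.66 to 4.99) were low in wildtype 1. C3 was high in Has-tKO 2 (62.7 FPKM, others 38.3 to 41.5) and Gusb low in Has-tKO 3 (25.4 FPKM, others 30.5 to 31.3). Cd74 was high in Has-tKO 4 (49.5 FPKM, others 11.4 to 16.0), and the summed endothelial markers in Has-tKO 1 (2.39 FPKM, others 1.66 to 1.76).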

How the results depend on the processing

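Each setting changed 1 choice, except those that joined median-ratio scaling to a pseudocount of 0.1, a replicate block or a left-out library, and that without both wildtype 1 and Has-tKO 4. Cebpd lost its call with median-ratio scaling (0.40), a pseudocount of 0.1 (0.70, adjusted p = 0.0540), no filter on low values (0.65, adjusted p = 0.0889), a filter at 0.5 FPKM (0.65, adjusted p = 0.0516) or unnamed loci tested as well (0.65, adjusted p = 0.0544). It kept the call when libraries were scaled to the same named total (0.58, adjusted p = 0.0408). Klf15 gained a call with median-ratio scaling (-0.82), the same named total (-0.71, adjusted p = 0.0490) and, an alternative chosen after seeing the data, scaling with a pseudocount of 0.1 (-1.34, adjusted p = 0.0376; Cebpd 0.44, adjusted p = 0.187). Pparg was called in no setting and changed sign once (-0.0021, without wildtype 4 after scaling; range without 1 library -0.0021 to 0.37). Without 1 library Cebpd ranged from 0.62 to 0.69 and Klf15 from -0.78 to -0.58 (-0.74 without wildtype 1, its 1 call; -0.78 without wildtype 1 and Has-tKO 4). With scaling, Cebpd was 0.38, 0.46, 0.38 and 0.40 without Has-tKO 1 to 4, and 0.54, 0.33, 0.38 and 0.36 without wildtype 1 to 4; it passed without wildtype 1 alone. Scaled Klf15 passed without Has-tKO 2 (-0.91), wildtype 1 (-0.78) or wildtype 3 (-0.89). The cause of these lost and gained calls was not tested, except that leaving out a library raises the smallest possible exact permutation p to 0.0571, so that no permutation call could hold. Their differences then ranged from 4.94 to 5.58 FPKM (Cebpd), -1.31 to -0.97 FPKM (Klf15), 1.20 to 1.46 (log2 Cebpd over Klf15) and 0.85 to 1.03 (log2 Pparg over Klf15). The scaled Cebpd difference was 3.05 FPKM (exact p = 0.0571).

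Over all genes 157 rose and 19 fell; 135 and 128 with median-ratio scaling, 219 and 54 with the same named total, 96 and 15 with a pseudocount of 0.1, 2 and 0 without filter (2046 and 489 at unadjusted p under 0.05), 126 and 11 with unnamed loci, and 116 and 114 with scaling and a pseudocount of 0.1. Without 1 library 10 to 323 rose and 0 to 99 fell, fewest without wildtype 4 (10 and 0) or Has-tKO 1 (12 and 0); without both wildtype 1 and Has-tKO 4 the numbers lay within these ranges. With scaling, 8, 51, 61 and 41 rose and 9, 47, 67 and 28 fell without Has-tKO 1 to 4, and 161, 33, 199 and 6 rose and 182, 20, 138 and 3 fell without wildtype 1 to 4. Of the 132 tested list genes other than Pparg, Cebpd and Klf15, 10 rose and 2 fell; 6 and 5 with median-ratio scaling, 13 and 5 with the same named total, 4 and 1 with a pseudocount of 0.1 or unnamed loci, 8 and 1 with a pseudocount of 0.5, 0 and 0 without filter, 7 and 1 with a filter at 0.5 FPKM, 13 and 7 without wildtype 1 and Has-tKO 4, 5 and 5 with scaling and a pseudocount of 0.1, and 1 to 21 and 0 to 9 without 1 library.

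The labels number the mice 1 to 4 in each genotype without stating a pairing. Deviations of same-numbered libraries correlated at -0.083, 0.311, -0.121 and -0.059, and 1 of 4 Has-tKO libraries correlated best with its own number, so the numbers were not taken as pairs. With the replicate block Cebpd did not pass (0.65, adjusted p = 0.104; 0.40, adjusted p = 0.222 with scaling), nor did scaled Klf15 (-0.82, adjusted p = 0.0814), 120 genes rose and 27 fell (16 and 15 with scaling), and 8 and 3 list genes (2 and 4 with scaling). Exact sign-flip tests over 4 numbered pairs cannot go below 0.125, which they gave for Cebpd (5.19 FPKM), Klf15 (-1.16 FPKM), log2 Cebpd over Klf15 (1.32) and log2 Pparg over Klf15 (0.93), and equally for Pparg (0.563 FPKM) and log2 Cebpd over Pparg (0.39). FPKM without read counts limits what can be said of Klf15, Pparg and the low adipocyte markers near 1 FPKM.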
